A study of Mus musculus with 16 samples.

Results

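The 10 genes described here encode *Oxa1l*, the insertase of the inner mitochondrial membrane, *Eral1*, the chaperone of the small mitochondrial rRNA, and the soluble translation factors of mitochondria *Tufm*, *Tsfm*, *Gfm1*, *Gfm2*, *Mtif2*, *Mtif3*, *Mrrf* and *Mtrf1l*. They were chosen by symbol, all 10 were found among 55471 deposited genes, and all 10 were among the 14331 genes that passed the filter on low counts. Bulk mRNA was sequenced from skeletal muscle of 16 male mice, and each library is 1 mouse. The libraries are labelled heterozygous (Npr1+/-, n = 10) or wildtype (Npr1+/+, n = 6). The heterozygous mice carry the B6.129-Npr1tm1Gar/J allele, backcrossed onto C57BL/6J, in the whole body, and the wildtype mice were littermates. All mice of both labels were 12 weeks old when a high fat diet (HFD, 60% of kcal from lipids) began, and ate it for 12 weeks. The labels do not say which muscle was taken.

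Mitochondria translate a small set of respiratory chain subunits from their own DNA on their own ribosomes. Initiation factors place the first tRNA and the mRNA on the small subunit, elongation factors deliver each further tRNA and move the ribosome along, and release and recycling factors free the finished chain and part the subunits. The OXA1L insertase inserts new chains into the inner membrane, working with the ribosome during their synthesis. All of these factors are encoded in the nucleus and imported, so their mRNAs are in the deposited table. The mitochondrial chromosome could not be used, since its 37 genes have a summed count of 0.

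The windows of 250 bases before the RefSeq start (GRCm38.p6) were matched by symbol for 9 of the 10 genes, all but *Mtif3*. 4 motifs were searched on both strands, namely the core of the NRF1 site (GCGC, then A and any base, then GCGC again), the ETS core (CCGGAAG), the YY1 core (AAGATGG) and the GC box (GGGCGG). NRF1 and ETS family factors are known regulators of nuclear genes for mitochondrial proteins. Windows of 3 members are shown, *Oxa1l* and *Eral1* because their mRNA was also chosen for RT-qPCR in muscle of HFD-fed mice, and *Mtif2* as the only member with an ETS core. Capitals mark the motif matches, all sequences read 5′ to 3′ on the strand of the gene, and the coordinates are chr14:54360591-54360840 on the plus strand for *Oxa1l*, chr11:78080384-78080633 on the minus strand for *Eral1* and chr11:29526147-29526396 on the plus strand for *Mtif2*.
Oxa1l: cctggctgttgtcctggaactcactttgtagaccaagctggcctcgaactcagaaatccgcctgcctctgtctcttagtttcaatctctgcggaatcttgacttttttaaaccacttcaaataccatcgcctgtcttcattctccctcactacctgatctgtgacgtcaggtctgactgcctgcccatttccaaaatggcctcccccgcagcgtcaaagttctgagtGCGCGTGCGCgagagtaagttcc
Eral1: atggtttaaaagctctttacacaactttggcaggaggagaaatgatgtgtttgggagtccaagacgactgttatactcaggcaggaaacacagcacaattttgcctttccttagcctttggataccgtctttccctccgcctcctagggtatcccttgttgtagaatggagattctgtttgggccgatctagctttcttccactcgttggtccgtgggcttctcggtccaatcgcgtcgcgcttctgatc
Mtif2: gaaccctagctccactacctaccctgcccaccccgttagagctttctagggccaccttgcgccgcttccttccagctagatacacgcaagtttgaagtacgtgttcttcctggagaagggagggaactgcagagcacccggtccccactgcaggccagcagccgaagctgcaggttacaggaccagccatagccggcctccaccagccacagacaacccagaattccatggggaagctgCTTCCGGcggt

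The *Oxa1l* window holds an NRF1 core on the reverse strand, 23 to 14 bases before the start, whereas the *Eral1* window holds none of the 4 motifs. *Gfm2* has the other NRF1 core among the members, GCGCAAGCGC, 43 to 34 bases before its start. That stretch also lies inside *Nsa2*, which runs the opposite way and shares 1 base with *Gfm2*. Of all 32817 promoter windows, 3.73% hold this core. *Mtif2* has its ETS core on the reverse strand 11 to 5 bases before the start, a motif in 6.9% of all windows. The GC box occurs 3 times in the *Mtrf1l* window and in no other member, against 32.7% of all windows, and the YY1 core is in no member window, against 4.49%. No 2 matches overlap. The GC content was 51.2% for *Oxa1l*, 48.8% for *Eral1* and 60.0% for *Mtif2*, beside a median of 52.4% over all windows. These matches are letters in a window and say nothing of binding.

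Between 15273472 and 59682677 counts per mouse were deposited, with replicate 5 labelled Npr1+/- the deepest and 23819345 the next highest of that label. The members had between 110 and 10691 counts in a library. Levels are given as CPM, counts relative to the library total after TMM scaling, and the totals limit the counting error only. *Npr1*, the targeted gene on chromosome 3 from 90450591 to 90465866 (GRCm38), had 13.6 ± 3.87 CPM (SD, n = 10) under the label Npr1+/- and 12.2 ± 1.05 CPM (SD, n = 6) under Npr1+/+. The 10.4 to 13.4 CPM of the latter lie inside the 9.83 to 22.2 CPM of the former. Its mRNA therefore does not tell the labels apart, and every direction below is between libraries as labelled. The sources used here do not give the position of the targeted part of *Npr1*.

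The first question was how abundant each factor is in this muscle. Compared per kb of exon length, *Tufm* and *Gfm1*, which encode the elongation factors EF-Tu and EF-G1, led with 39.8 ± 7.0 and 38.6 ± 9.85 CPM per kb (SD, n = 16). *Eral1* with 15.3 ± 1.83 and *Oxa1l* with 14.6 ± 1.62 CPM per kb formed the next step. *Gfm2*, which encodes the second EF-G of mitochondria, known for its role in ribosome recycling, had 8.56 ± 2.25 CPM per kb. Below it, *Mtif2* had 6.88 ± 1.10, *Tsfm* 6.45 ± 1.08, *Mtif3* 5.78 ± 1.3 and *Mrrf* 5.54 ± 0.642 CPM per kb. *Mtrf1l*, which encodes a release factor, was lowest with 3.2 ± 0.677 CPM per kb, and it was last of the 10 in each of the 16 mice. The highest mean level was 12.4 times the lowest.

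Of the 9 neighbours in this order, 4 differed in a two-sided exact sign-flip permutation test of the 16 log2 differences within mice, with p adjusted over the 9 pairs. *Gfm1* was above *Eral1*, *Oxa1l* above *Gfm2*, and *Mrrf* above *Mtrf1l*, each in 16 of 16 mice (adjusted exact p = 9.16e-05, from 3.05e-05, the smallest the test can give). *Gfm2* was above *Mtif2* in 13 of 16 mice by 0.28 on the log2 scale (SD 0.38, adjusted exact p = 0.0169). The other 5 neighbours did not differ beyond their spread. *Tufm* exceeded *Gfm1* in 9 mice (adjusted exact p = 0.576) and *Eral1* exceeded *Oxa1l* in 9 (0.349). *Mtif2* exceeded *Tsfm* in 11 (0.349), *Tsfm* exceeded *Mtif3* in 13 (0.0845) and *Mtif3* exceeded *Mrrf* in 10 (0.576). As ratios of mean level per kb, with no test, *Tufm* stood at 6.17 times *Tsfm*, its nucleotide exchange factor, *Gfm1* at 4.51 times *Gfm2*, *Tufm* at 1.03 times *Gfm1*, and *Mtif3* at 0.839 times *Mtif2*. The annotated exon length of *Gfm2*, 10685 bases, is the longest of the members and enters this value directly. Without the length correction *Gfm2* stood second after *Gfm1*, with 91.5 ± 24.05 CPM against 171 ± 43.5 CPM (SD, n = 16).

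**Figure D1:**
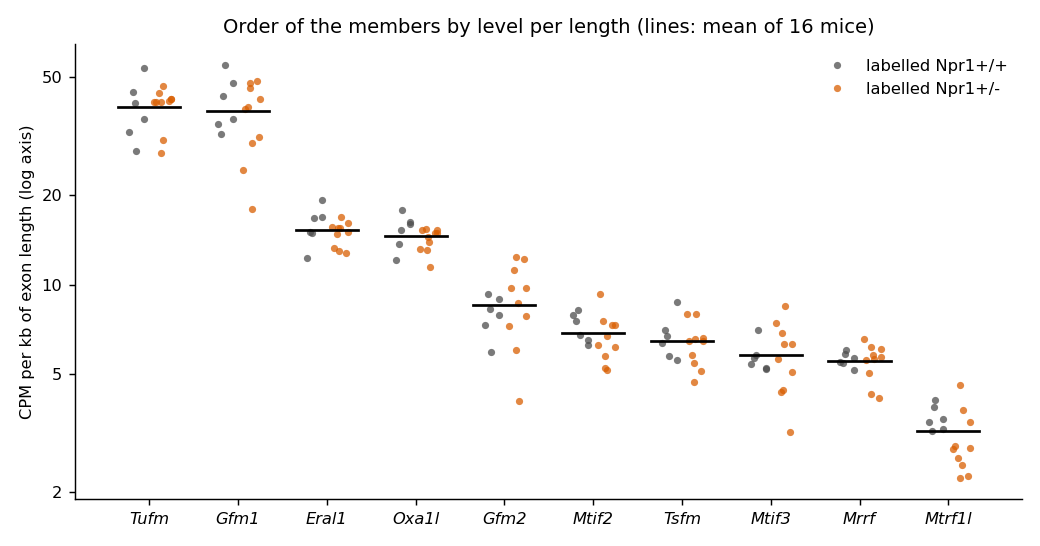
Level per length of the 10 genes, with the gene on the x axis and CPM per kb of exon length on a log y axis. Each point is 1 mouse, coloured by Npr1 label, and each line is the mean of 16 mice, from 39.8 CPM per kb for *Tufm* down to 3.2 CPM per kb for *Mtrf1l*.

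The second question was whether the members differ with the *Npr1* label. None passed: 0 of 10 members had an adjusted p under 0.05 in edgeR's quasi-likelihood test with cage and body weight as covariates, where 0 of 14331 genes did (0%). Each of the 10 adjusted p-values, by the Benjamini-Hochberg method over all tested genes, was 1.0. At an unadjusted p under 0.05 there were also 0 members, beside 151 genes (1.05%), 78 of them higher (0.544%) and 73 lower (0.509%) in libraries labelled Npr1+/-. At an adjusted p under 0.05, DESeq2 called 6 genes and limma-voom 0, with 0 members in either. The CPM ranges of the labels overlapped for all 10 members, as they did for all but 1 of the tested genes (0.00698%). In these bulk samples, fewer cells of a type and less RNA per cell cannot be told apart.

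*Oxa1l* lies on chromosome 14 (54360834 to 54369673, plus strand). In libraries labelled Npr1+/- it ranged from 51.1 to 68.9 CPM with a median of 65.7, and in those labelled Npr1+/+ from 54.2 to 79.5 CPM with a median of 69.7. The ranges overlap over most of their length, with replicate 9 labelled Npr1+/- the lowest mouse and replicate 1 labelled Npr1+/+ the highest. The fitted log2 fold change, Npr1+/- minus Npr1+/+, was -0.12 (standard error, SE, 0.13, 95% interval -0.39 to 0.16, p = 0.389 in edgeR). Within the cages the difference of mean log2 CPM ran from -0.21 in cage 678 to 0.09 in cage 675, and was below 0 in 3 of 4 cages.

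*Eral1*, on chromosome 11 (78073376 to 78080383, minus strand), ranged from 29.0 to 38.3 CPM (median 34.7) under the label Npr1+/- and from 27.9 to 43.8 CPM (median 36.1) under Npr1+/+. Replicates 3 and 4 labelled Npr1+/+ were the lowest and the highest of all 16 mice, so the wildtype range enclosed the other. The fitted log2 fold change came to -0.14 (SE 0.14, 95% interval -0.43 to 0.16, p = 0.339 in edgeR). Without replicate 4 labelled Npr1+/+ that value was 0.015, on the other side of 0.

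The elongation factor genes varied more. *Tufm*, on chromosome 7 (126487361 to 126490727), encodes the GTPase that brings aminoacyl-tRNA to the ribosome. It had 59.1 to 99.3 CPM (median 88.3) in libraries labelled Npr1+/- and 59.9 to 114 CPM (median 82.0) in those labelled Npr1+/+. The means of 85.1 ± 12.6 (SD, n = 10) and 83.8 ± 19.4 CPM (SD, n = 6) lay close together. The fitted log2 fold change had the opposite sign, -0.19 (SE 0.16, 95% interval -0.53 to 0.15, p = 0.259 in edgeR), and this p was the smallest of the members. *Tsfm*, on chromosome 10 (127011572 to 127030803), had 13.7 to 23.1 CPM (median 18.8) against 16.2 to 25.3 CPM (median 19.0), with a log2 fold change of -0.18 (SE 0.17, p = 0.303 in edgeR). It was lower under the label Npr1+/- in 4 of 4 cages, by 0.01 to 0.43 on the log2 scale. Without replicate 4 labelled Npr1+/+ the log2 fold change of *Tsfm* was -0.022.

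*Gfm1*, on chromosome 3 (67430096 to 67476529), encodes the translocase of the elongating ribosome. It spanned 79.8 to 215 CPM (median 174) under the label Npr1+/- and 143 to 244 CPM (median 176) under Npr1+/+. The lowest library was replicate 9 labelled Npr1+/-, and replicates 1, 4 and 10 of that label also stood below every wildtype library. Without replicate 9 the log2 fold change turned from -0.12 (SE 0.24, p = 0.622 in edgeR) to 0.013. *Gfm2*, on chromosome 13 (97137937 to 97181195), had its lowest value in the same library, with 43.3 to 132 CPM (median 98.5) against 63.6 to 99.6 CPM (median 86.6). Its wildtype range lay wholly inside the other, and the log2 fold change of -0.07 (SE 0.22, p = 0.738 in edgeR) became 0.047 without that library.

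The initiation factor genes *Mtif2* and *Mtif3* had fitted values on either side of 0. *Mtif2*, on chromosome 11 (29526408 to 29545279), places the initiator tRNA and had 19.99 to 35.9 CPM (median 25.1) under Npr1+/- and 24.3 to 31.8 CPM (median 27.7) under Npr1+/+. The fit gave a log2 fold change of -0.18 (SE 0.16, p = 0.290 in edgeR), with the highest and the lowest mouse both labelled Npr1+/-. *Mtif3*, on chromosome 5 (146951573 to 146963800), ran from 16.3 to 43.6 CPM (median 30.6) against 26.7 to 36.1 CPM (median 28.4). Replicates 7 and 9 labelled Npr1+/- were its extremes, and the log2 fold change of 0.16 (SE 0.20, p = 0.428 in edgeR) was the highest of the members.

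*Mrrf*, the ribosome recycling factor on chromosome 2 (36136389 to 36190647), had 20.7 to 32.7 CPM (median 28.1) and 25.6 to 29.9 CPM (median 27.6), with a log2 fold change of 0.02 (SE 0.14, p = 0.879 in edgeR). *Mtrf1l*, on chromosome 10 (5811887 to 5823910), had 7.26 to 15 CPM (median 9.14) against 10.5 to 13.3 CPM (median 11.3). Most of its libraries labelled Npr1+/- lay under the wildtype range, while replicate 8 of that label was the highest of all. The log2 fold change was -0.15 (SE 0.19, p = 0.443 in edgeR). With no model, its difference of mean log2 CPM had the smallest two-sided exact permutation p of the members, 0.0683 over 8008 splits of the mice and 0.0639 over the 360 splits within cages, and it was lower in 4 of 4 cages. The exact p of the other 9 members ran up to 0.895.

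**Figure D2:**
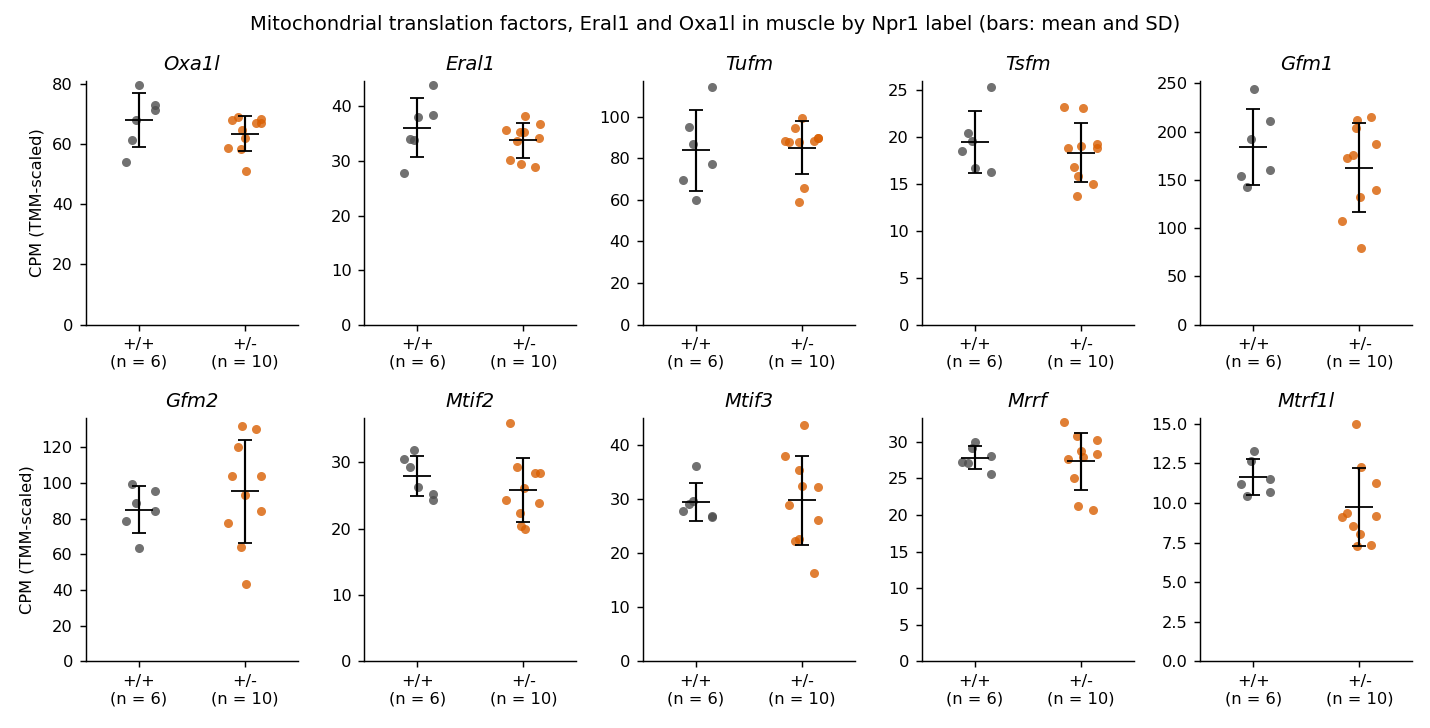
TMM-scaled CPM of the 10 genes on the y axes, from 0, by Npr1 label on the x axes. Points are mice, and bars are the mean and SD of 6 mice labelled Npr1+/+ and 10 labelled Npr1+/-; the points of both labels overlap in each of the 10 panels.

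Of the 10 members, 8 had a fitted value below 0, with a median log2 fold change of -0.13, beside 51.6% of all tested genes below 0 with a median of -0.0060. The 10 values ran from -0.19 to 0.16, and *Mtif3* and *Mrrf* were the members above 0. All 10 95% intervals held 0. As folds, the interval was 0.761 to 1.12 for *Oxa1l*, 0.745 to 1.11 for *Eral1* and 0.826 to 1.25 for *Mrrf*. The lowest bound of the members was 0.644, for *Gfm1*, and the highest 1.5, for *Mtif3*. With body weight and cage left out, *Tufm*, *Gfm2* and *Mrrf* turned sign, to 0.023, 0.16 and -0.027. The ribosomal stalk gene *Mrpl12*, also chosen for RT-qPCR, had 277 ± 138 CPM (SD, n = 10) against 298 ± 54.9 CPM (SD, n = 6) and a fitted difference of 0.00050 on the log2 scale (SE 0.31, adjusted p = 1.0 in edgeR). Leaving out each mouse moved it from -0.23, without replicate 9 labelled Npr1+/-, to 0.12.

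**Figure D3:**
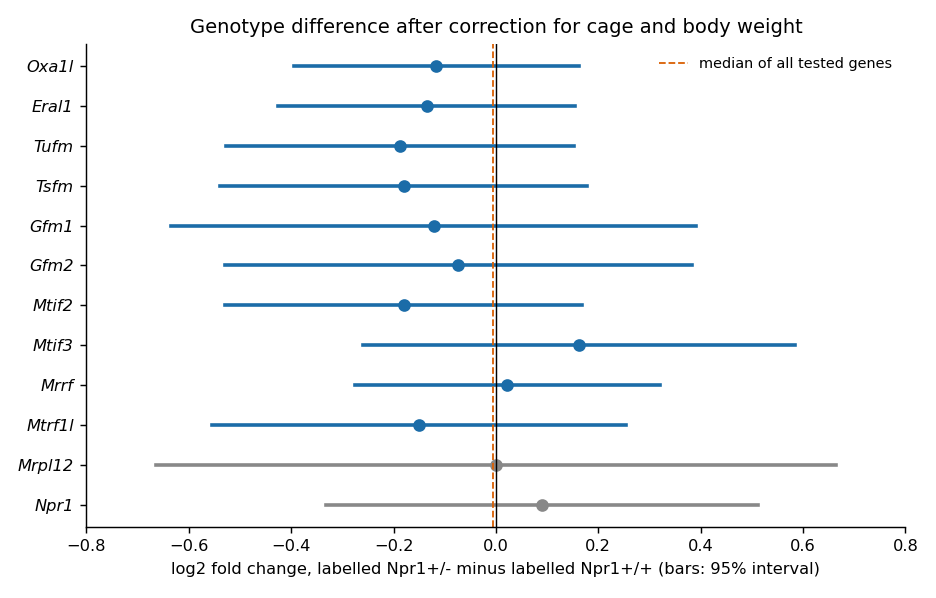
Fitted log2 fold change of each gene on the x axis, libraries labelled Npr1+/- minus Npr1+/+, corrected for cage and body weight, with genes on the y axis. Points are estimates, bars 95% intervals and the dashed line the median of all tested genes; 8 of 10 members lie below 0 and all 10 bars cross it, and *Mrpl12* and *Npr1* are in grey.

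The body weight of the mice, a covariate of the same fit, ran from 36.5 to 54 g. No member had a body weight slope at an adjusted p under 0.05 in edgeR, where 0% of the tested genes did. At an unadjusted p under 0.05 the slopes of 2 members passed, both negative, beside 2449 genes (17.1%), of which 4.74% of the tested genes were positive and 12.3% negative. *Gfm2* had -0.07 log2 per g (SE 0.03, p = 0.0241, adjusted p = 0.253) and *Tufm* -0.05 log2 per g (SE 0.02, p = 0.0370, adjusted p = 0.270 in edgeR). Of the 10 slopes, 6 were below 0, as were those of 52.7% of all genes. *Mtif3* had the highest, 0.05 log2 per g (p = 0.0563). Which genes passed depended on single mice. At an unadjusted p under 0.05, 0 members passed without replicate 1 labelled Npr1+/+ (10.4% of all genes did), where *Gfm2* had p = 0.0596 and *Tufm* p = 0.111 in edgeR, and 5 passed without replicate 3 labelled Npr1+/- (37.6% of all genes did). The slope stayed below 0 in every fit without 1 mouse, from -0.10 to -0.056 for *Gfm2* and from -0.060 to -0.036 for *Tufm*. Without replicate 3 labelled Npr1+/-, which weighed 40.1 g, 3158 genes had an adjusted p under 0.05 (22.1%), with *Gfm2* (-0.10 log2 per g, adjusted p = 0.0295 in edgeR) and *Mtif3* (0.09 log2 per g, adjusted p = 0.0213) among them.

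The 4 cages, the only batch that the labels name, each held both labels. In a joint edgeR test of the cage terms 0 members passed (adjusted p from 0.674 to 0.889), beside 4 genes (0.0279%), and 0 members had an unadjusted p under 0.05, beside 7.36% of the genes. Without replicate 3 labelled Npr1+/-, 869 genes and 0 members passed.

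The third question was how the members vary among themselves over the 16 mice. *Oxa1l* varied least, with a coefficient of variation of 11.1%, and *Gfm2* most, with 26.3%. They did not vary as 1 unit: of the 45 pairs, 23 had a positive and 22 a negative correlation of log2 CPM, with a median Pearson r of 0.0068. 8 pairs passed a permutation test of r (100000 resamples, adjusted over the 45), 5 positive and 3 negative. An absolute r as high as that of the weakest of these 8 was found in 17.5% of all pairs of tested genes, a share close to that of the members. All 8 were among the 10 that passed once cage means were removed, and 6 passed without the deepest library. Genes of a library share its depth and composition.

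The closest pair in opposition was *Gfm2* with *Mtif3*, at Pearson r = -0.86 (adjusted permutation p = 0.00067) and Spearman rho = -0.86 (adjusted permutation p = 0.0013). Without the 2 mice farthest from the median of *Gfm2*, r was -0.83. The initiation factor *Mtif3* and the recycling factor *Mrrf* rose and fell together, at r = 0.83 (adjusted permutation p = 0.00067) and rho = 0.76 (0.0183), and r was 0.87 without the 2 farthest mice. *Gfm2* also opposed *Mtrf1l* (r = -0.76, rho = -0.75, adjusted permutation p = 0.0093 and 0.0183, and r = -0.79 without 2 mice), and *Tsfm* opposed *Gfm1* (r = -0.72, rho = -0.73, adjusted permutation p = 0.0177 and 0.0237, and r = -0.85 without 2 mice). The remaining 4 pairs passed by r and not by rho. *Tufm* with *Gfm2* had r = 0.70 and rho = 0.61 (adjusted permutation p = 0.0202 and 0.101) and r = 0.62 without 2 mice. *Oxa1l* with *Gfm1* had r = 0.69 and rho = 0.46 (adjusted permutation p = 0.0244 and 0.247) and r = 0.53 without 2 mice. *Mtrf1l* had r = 0.64 with both *Mrrf* and *Mtif3* (adjusted permutation p = 0.0374 each), with rho of 0.55 and 0.56 (0.151 each), and r fell to 0.29 and 0.51 without 2 mice. *Oxa1l* and *Eral1* had r = 0.27 and rho = 0.28 (adjusted permutation p = 0.457 and 0.480, and r = 0.32 without 2 mice). *Tufm* and *Tsfm*, whose proteins bind each other, had r = 0.43 and rho = 0.43 (adjusted permutation p = 0.216 and 0.268, and r = 0.15 without 2 mice).

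The genes whose log2 CPM followed *Oxa1l* most closely were *Dlst*, which encodes a subunit of the 2-oxoglutarate dehydrogenase complex (r = 0.92, rho = 0.81), *Rwdd4a* (r = 0.87, rho = 0.79) and *Bcam* (r = 0.86, rho = 0.72), given as a description over 16 mice. *Gfm1* was the nearest member, at place 66 of the tested genes. For *Eral1* they were *Aldoart1* (r = 0.90, rho = 0.93), *Gm5452* (r = 0.88, rho = 0.85) and *Fdps*, an enzyme of the mevalonate pathway (r = 0.88, rho = 0.81). *Aldoart1* is a retrogene copy of aldolase A and *Gm5452* a predicted gene, whose reads the counting could take from other genes.

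Several of these genes also varied with a property of the libraries. For each library, the slope of log2 CPM (minus the mean of the gene) on log2 exon length was taken over all tested genes, a measure added after the data were seen. It ran from -0.19 (replicate 9) to 0.32 (replicate 7) among the libraries labelled Npr1+/- and from -0.12 to 0.04 among those labelled Npr1+/+. 7 of the 10 members had a Pearson r with this slope that passed a permutation test (adjusted over 12 relations, the 10 members, *Mrpl12* and *Npr1*), 5 negative and 2 positive. An absolute r as high as that of the weakest of them was found in 52.9% of all tested genes, so that the share of the members is not far from that of any gene.

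*Mtif3* followed the slope most closely, at r = -0.92 (adjusted permutation p = 6.0e-05) and rho = -0.86 (0.00012), with r = -0.86 without the 2 mice farthest from the median slope. *Mrrf* had r = -0.86 (adjusted permutation p = 8.0e-05), rho = -0.71 (0.0044) and r = -0.64 without 2 mice. *Eral1* had r = -0.69 (adjusted permutation p = 0.0067), rho = -0.76 (0.0027) and r = -0.52 without 2 mice. *Gfm2* went the other way, at r = 0.79 (adjusted permutation p = 0.00079), rho = 0.80 (0.0011) and r = 0.70 without 2 mice. With cage means removed these 4 values of r were -0.92, -0.84, -0.70 and 0.80. *Mtrf1l*, *Tsfm* and *Gfm1* passed by r (-0.62, -0.58 and 0.57, adjusted permutation p = 0.0162, 0.0270 and 0.0294) and missed by rho (-0.52, -0.51 and 0.51, adjusted permutation p = 0.0624 each). Without 2 mice their r fell to -0.31, -0.42 and 0.49, and with cage means removed it was -0.66, -0.60 and 0.52.

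*Oxa1l* (r = 0.21, rho = 0.14), *Tufm* (r = 0.23, rho = 0.13) and *Mtif2* (r = 0.29, rho = 0.49) did not pass, with adjusted permutation p of 0.430, 0.430 and 0.339 for r and 0.633, 0.633 and 0.0667 for rho. Without 2 mice their r was 0.26, 0.21 and 0.71, and with cage means removed 0.11, 0.31 and 0.24. Over the 10 mice labelled Npr1+/- and the 6 labelled Npr1+/+, r with the slope had opposite signs for 3 members, at 0.67 and -0.86 for *Oxa1l*, 0.81 and -0.45 for *Gfm1*, and 0.35 and -0.079 for *Tufm*, differences that were not tested. *Mrpl12* had r = -0.94 and rho = -0.94 with the slope, and *Npr1* r = 0.88 and rho = 0.83 (adjusted permutation p of 9.0e-05 or less for r and 0.00068 or less for rho). Without 2 mice r was -0.87 and 0.80, and with cage means removed -0.96 and 0.87. With the slope as a further covariate of the genotype fit, 1 member, *Mtif3*, had an unadjusted p under 0.05 (log2 fold change 0.23, p = 0.0451, adjusted p = 1.0 in edgeR), beside 2.03% of the genes. What moves the slope was not tested. *Gfm2*, *Mtif3* and *Mrrf*, the genes of the closest pairs above, all followed the slope, and the pairs were not tested with it removed.

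**Figure D4:**
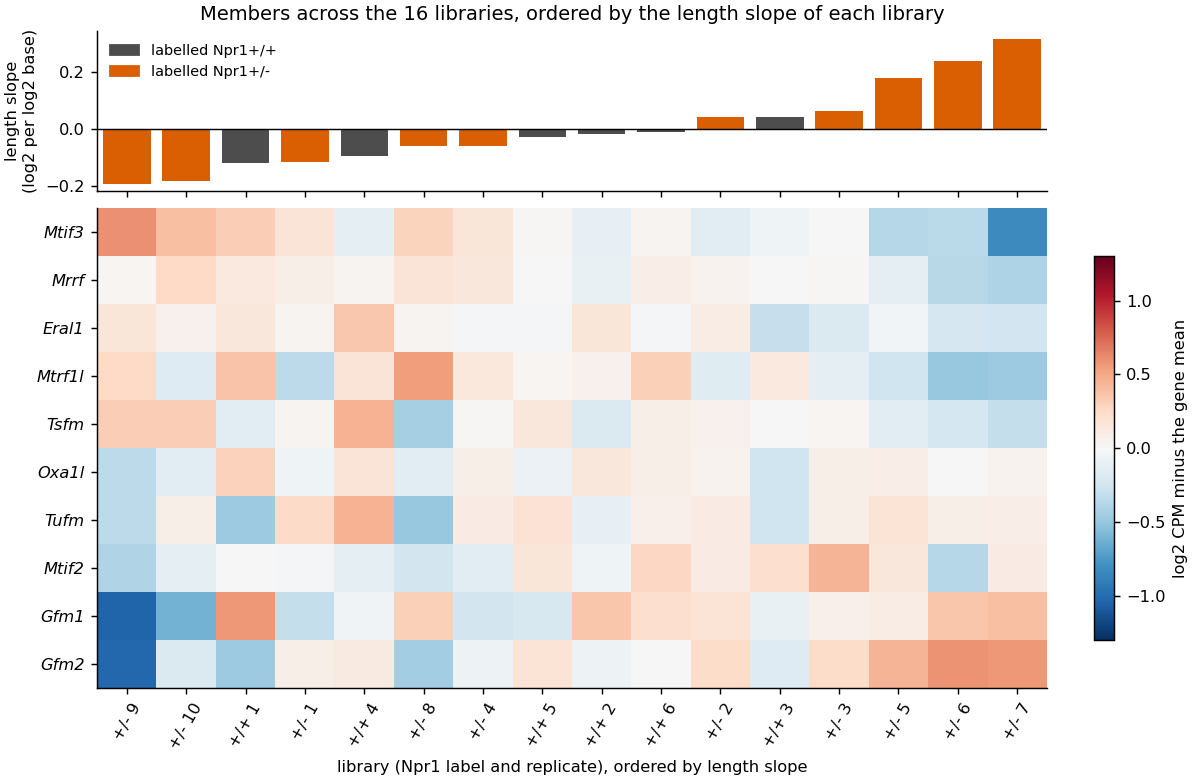
Top, the length slope of each library in log2 CPM per log2 base; bottom, log2 CPM of each gene minus its mean, in colour, with libraries on the x axis in order of the slope and genes on the y axis in order of their correlation with it. *Mtif3* (r = -0.92) goes from high to low from left to right and *Gfm2* (r = 0.79) from low to high.

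**Figure D5:**
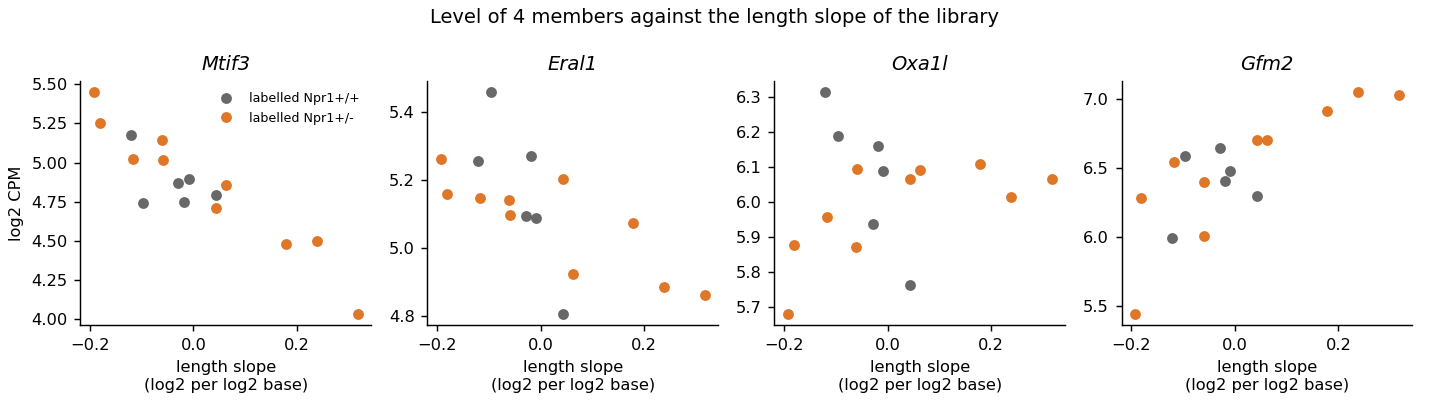
log2 CPM of *Mtif3*, *Eral1*, *Oxa1l* and *Gfm2* on the y axes against the length slope of the library on the x axes, with 1 point per mouse, coloured by Npr1 label. *Mtif3* and *Eral1* fall (r = -0.92 and -0.69), *Gfm2* climbs (r = 0.79), and *Oxa1l* has r = 0.21.

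The spans of 6 members, introns included, share bases with a gene on the opposite strand, and the sources name 2 kits, so whether strand was used in counting is unknown. *Tsfm* shares 9423 bases with *Avil*, *Gfm1* 5929 with *Lxn*, *Gfm2* 1 with *Nsa2*, *Mtif3* 4042 with *Gtf3a*, *Mrrf* 385 with *Rbm18* and 365 with *Gm13428*, and *Oxa1l* 232 with *Slc7a7*. If counting ignored strand, reads where exons of both genes overlap could not be assigned, and how much of each stretch is exon in both was not examined. *Gtf3a* had 5893 counts over the 16 mice beside 10739 for *Mtif3*, and *Rbm18* had 16746 beside 10130 for *Mrrf*, whereas *Slc7a7* had 661 beside 24492 for *Oxa1l*. *Eral1*, *Tufm*, *Mtif2* and *Mtrf1l* share no base with another gene.

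The other genes of mitochondrial translation were read from the same genotype fit, in lists chosen with earlier results of these data known. In each of the 7 lists of translation genes, 0 genes had an adjusted or an unadjusted p under 0.05 in edgeR. Those shares were 0% and 1.05% over all tested genes. Of all tested genes, 51.6% had a fitted value below 0, and the median log2 fold change was -0.0060. Of 77 tested mitochondrial ribosomal proteins, 58 had a fitted value below 0, with a median log2 fold change of -0.09. *Mrpl9* (-0.34) and *Mrps18b* (-0.23), of the large and small subunit, had the smallest p-values there, 0.0870 and 0.113. Of 7 genes listed under release and rescue, not all of them such factors, 4 were below 0 (median -0.01). *Mrpl58*, a peptidyl-tRNA hydrolase of the ribosome, had -0.17 and *Guf1* -0.09. Some genes, such as *Mrpl58*, which is also among the 77, are in more than 1 list. Of 24 ribosome assembly genes, 13 were below 0 (median -0.03), with *Rmnd1* at -0.14 and *Nsun4*, an rRNA methyltransferase, at -0.14.

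Of 23 genes of mitochondrial tRNA synthetases and related enzymes, 18 were below 0 (median -0.08), with *Sars2* at -0.20 and *Ears2* at -0.17. *Lars2*, singled out after its values were seen, ran from 89.6 to 11842 CPM over the 16 mice. It was highest in replicates 1 and 9 labelled Npr1+/-, the libraries in which *CT010467.1* also took the highest shares of the counts, 8.80% and 9.10%, against 0.0484% in the library with the lowest share. Among 15 genes of membrane insertion and translation activation 13 were below 0 (median -0.07), with *Surf1* at -0.18 and *Taco1*, a translational activator of cytochrome c oxidase subunit I, at -0.12. Among 10 chaperones and proteases of new chains 8 were below 0 (median -0.07), with *Yme1l1* at 0.21 and *Spg7* at -0.14. Among 26 cytosolic translation factors 14 were below 0 (median -0.0090), with *Eef1d* at -0.16 and *Eef1a2*, the muscle form of eEF1A, at -0.15.

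The labelled tissue was checked by its markers. The 10 skeletal fibre genes summed to 107032 to 168832 CPM in every library, whereas 7 slow fibre genes summed to 117 to 258 CPM. In libraries labelled Npr1+/- and Npr1+/+, the summed CPM was 344 to 1253 and 507 to 1009 for 8 adipocyte genes, 172 to 518 and 205 to 270 for 6 endothelial genes, and 27.8 to 91.1 and 44.3 to 79.6 for 6 macrophage genes. It was 88.0 to 510 and 192 to 320 for 5 erythrocyte genes, 0.281 to 2.79 and 1.01 to 2.35 for 4 B cell genes, 76.9 to 126 and 71.5 to 130 for 4 Schwann cell genes, and 290 to 602 and 346 to 438 for 6 tendon and fibroblast genes. No marker was at 0 in all mice, and 0 markers had an adjusted p under 0.05 in edgeR. *Hbb-bt* and *Alas2* of the erythrocyte list, all 5 of which had fitted values above 0, were higher and *Cd79a*, the 1 tested B cell gene, lower at an unadjusted p under 0.05. Of all tested genes, 0.544% were higher and 0.509% lower at that threshold, and 51.6% had fitted values below 0. The libraries with the extremes of the length slope were also at the extremes of several sums, with replicate 9 labelled Npr1+/- highest and replicate 7 lowest for the erythrocyte, macrophage, ribosomal protein and ribosome assembly lists, and the reverse for the endothelial list. Their part in the values of the members was not tested.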

How the data were processed

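Skeletal muscle of 16 mice was measured by mRNA-seq, 10 labelled heterozygous and 6 wildtype. The authors mapped 52-bp paired reads to GRCm38, counted fragments per GENCODE M24 gene where both ends aligned, and deposited raw counts beside a gene length in bases. The submitters' processing notes name STAR 2.7.2b and featureCounts 1.6.4. Totals were 15273472 to 59682677 counts. Of 55471 identifiers, 55144 were paired with a symbol, and 3 listed genes found no match.

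Genotype, cage and body weight came from the labels. R 4.3.3 and edgeR 4.0.16 were used with filterByExpr, TMM, glmQLFit (robust = TRUE, legacy = TRUE) and glmQLFTest over all genes, with cage and body weight as covariates, Benjamini-Hochberg adjustment and a threshold of 0.05. log2 CPM used a prior count of 2. Coordinates are those of the deposited table. Alternatives were other covariates, a replicate block, RLE or library size scaling, DESeq2 1.42.0, limma-voom (limma 3.58.1), other filters and leaving out each mouse. A length slope covariate and thinning of libraries were added after the data were seen. Only the edgeR genotype fit was tested on simulated counts, which held no cage or body weight effect. The differences planted there were larger than those fitted for the members.

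Named genes are the 10 members, *Npr1*, *Mrpl12*, the 2 genes of each list with the smallest p, and the 3 nearest to *Oxa1l* and to *Eral1*. *Lars2* and *CT010467.1*, and the overlapping genes, were added afterwards. Some overlaps between genes are not reported here. The members and lists were chosen with earlier results of these data known.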

Additional observations from a re-analysis of the deposited data

Results flagged for a closer look

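Of 24 groups of values examined for 1 mouse far from the rest of its label, 1 stood out, where chance gives about 1 in 20. *Mtif3* in replicate 1 labelled Npr1+/+ had a log2 CPM of 5.18 (36.1 CPM), above the next highest wildtype value of 4.90 by 0.650 of the whole range of the 6 mice.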

How the results depend on the processing

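With the *Npr1* label, 0 members passed at an adjusted p under 0.05 in every alternative run. The number of all genes that passed was 0 in the main edgeR fit, 6 with DESeq2, 8 without a filter on low counts, 2 with the length slope as a covariate and 151 unadjusted. Leaving out each mouse gave 0 to 3 genes, with 3 without replicate 3 labelled Npr1+/+ and 2 without replicate 6 labelled Npr1+/-. With the label alone, the log2 fold change turned to 0.023 for *Tufm*, 0.16 for *Gfm2* and -0.027 for *Mrrf*. With cage as the only covariate, it turned to 0.19 for *Gfm2*, -0.042 for *Mtif3* and -0.060 for *Mrrf*. Over the fits without 1 mouse it ran from -0.15 to -0.05 for *Oxa1l*, -0.21 to 0.015 for *Eral1*, -0.24 to -0.07 for *Tufm*, -0.23 to -0.02 for *Tsfm*, -0.23 to 0.013 for *Gfm1*, -0.18 to 0.070 for *Gfm2*, -0.34 to -0.09 for *Mtif2*, 0.07 to 0.27 for *Mtif3*, -0.047 to 0.11 for *Mrrf* and -0.25 to -0.06 for *Mtrf1l*. *Gfm2* also turned without replicate 5 labelled Npr1+/+, as did *Mrrf*, which turned without replicate 4 labelled Npr1+/- too.

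Replicate numbers do not pair the mice, which are different animals: the 6 same-numbered pairs had correlations of 0.0328 to 0.170, and 2 of 6 mice labelled Npr1+/- correlated best with their own number. With the replicate block in place of cage (12 mice), 2 genes and 0 members passed. *Tufm* turned to 0.057, *Gfm2* to 0.26, *Mtif3* to -0.10 and *Mrrf* to -0.10, and *Mtrf1l* had -0.42 (p = 0.0439, adjusted p = 0.540 in edgeR), with 1289 of 14032 genes at an unadjusted p under 0.05. Of the other genes named, *Mrpl12* had -0.45 in this fit (p = 0.0222, adjusted p = 0.513 in edgeR), and -0.25 with cage as the only covariate.

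For body weight, 2449 genes and 2 members passed unadjusted, and leaving out each mouse gave 0 to 3158 genes and 0 to 2 members at an adjusted p. The highest counts were those without replicate 3 labelled Npr1+/-. Slopes without 1 mouse ran from -0.0101 to 0.0209 log2 per g for *Eral1*, -0.0219 to 0.0108 for *Tsfm*, -0.0367 to 0.0012 for *Gfm1*, -0.10 to -0.06 for *Gfm2* and 0.03 to 0.09 for *Mtif3*, and the slope of *Tsfm* was 0.00038 with RLE size factors. For cage, 1 gene passed with limma-voom, 1 with at least 10 counts in every mouse and 1055 unadjusted, and leaving out each mouse gave 0 to 869 genes and 0 members, with 869 without replicate 3 labelled Npr1+/-. The cause of these changes was not tested.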
